A study of Arabidopsis thaliana with 6 samples.

Results

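The comparison described here sets seedlings of line HY213 against wild-type Arabidopsis thaliana seedlings when both had received estradiol, and it uses 4 of the 6 arrays in the series, 2 per line. All seedlings were 9 days old and were sampled 8 h after treatment. The arrays compared are labelled as the Columbia ecotype. The design text calls the inducible line pER22-AGL24; HY213 is taken to be that line because the sample titles name it beside the wild type. The remaining 2 arrays hold HY213 after mock treatment. They entered the estimate of spread, and their values stand beside many of the results as a further reference. The design text describes each replicate as an independent pool of seedlings. The wild type is not labelled as carrying any construct, so an effect of induced AGL24, of the estradiol-activated transcription factor that drives it, or of the site where the construct sits cannot be told apart from these arrays alone.

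AGL24 is a MADS-box transcription factor that promotes the switch from leaf production to flowering, and it acts in the shoot apex together with other MADS-box proteins. In the XVE system a chimeric activator stays inactive until estradiol binds it, after which it enters the nucleus and switches on the transgene. Both lines were given estradiol, so the chemical is held constant in this comparison.

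Intensities are the authors' processed values on a linear scale. Differences are given as log2 of HY213 minus log2 of wild type within the same replicate number, so that a value of 1 is a 2-fold higher intensity in HY213. The level of background was read from the probe sets for Bacillus transcripts, whose highest value was 5.99 and 5.31 on the HY213 arrays and 6.22 and 5.28 on the wild-type arrays, replicates 1 and 2. Of 22746 probe sets, 12549 lay above that level on all 4 arrays and 5920 lay at or below it on all 4. Array medians over all 6 arrays ran from 6.95 to 7.27. Of the shoot markers, 2 of 12 could be named and both were bright, with summed intensities of 1369 and 1961 in HY213 and 1239 and 2322 in wild type. The 2 nameable root markers, the beta-glucosidase gene PYK10 and the root-hair expansin gene EXPA7, summed to 1396 and 1168 in HY213 and 1300 and 1054 in wild type. Of the 3 nameable guard-cell markers 1 lay at background on all 4 arrays, and none of the floral-organ or vascular markers could be named. Of the seed markers, 2 of 15 could be named, and they summed to 10.9 and 17.2 in HY213 and to 10.4 and 10.03 in wild type. Of these 2, only AT2G28490 was raised on the replicate 2 HY213 array, at 11.0. The oleosin gene OLEO3 read 6.38 and 6.19 in HY213 and 5.85 and 5.60 in wild type. The levels of the other seed markers are not known. PAP85, a seed storage protein gene outside the markers and picked with its values in view, read 42.8 on the replicate 2 HY213 array. It read 9.90 on the replicate 2 wild-type array.

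AGL24 (AT4G24540) separated the lines by more than any other probe set. It read 106 and 401 in HY213, replicates 1 and 2, and 5.05 and 4.60 in wild type. Both wild-type values were below the Bacillus level of their array, so HY213 was at least 17.1-fold higher in replicate 1 and at least 76.1-fold higher in replicate 2. Mock-treated HY213 read 4.98 and 4.87, as low as wild type. The 2 HY213 arrays differed from each other as well: 1795 probe sets were brighter than AGL24 on the replicate 1 array and 457 on the replicate 2 array. In limma with the replicate number as a block, the log2 difference was 5.42 ± 0.43 (SE, adjusted p = 0.0252). This setting, log2 values paired by replicate, is that of the comparison's own rule, and earlier fits of these arrays had already shown that AGL24 passes under it. With AGL24 raised to the Bacillus level wherever it read lower, an alternative added after the data were seen, the adjusted p was 0.0492. The call was lost without the block (adjusted p = 1), with a pseudocount of 16 or 64 (adjusted p = 0.332 and 0.998), with no mean-variance trend (0.949) and with a robust variance prior (0.998).

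AGL24 was the only probe set of 22746 that passed an adjusted p of 0.05 in that fit, which is 0.0044% of those tested. In the lower direction limma called 0, or 0.0%. At an unadjusted limma p under 0.05 there were 825 probe sets (3.63%), 436 of them higher in HY213 (1.92%) and 389 lower (1.71%). Without the block there were 175 (0.769%). If no probe set differed, a share near 0.05 would still pass, so nothing is read from these counts. An exact two-sided permutation test of 2 arrays against 2, ignoring the pairing, cannot give a p below 0.333 even for AGL24. The genes other than AGL24 are therefore described by their values on each array, and none of them passed the test.

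A 2-fold difference in the same direction within both replicates was seen for 3 probe sets, all higher in HY213 (0.0132%), and for 0 that were lower (0.0%). These were AGL24, AT4G12490 and the plastid gene psaJ. Within a single replicate the counts were larger. In replicate 1, 31 probe sets were at least 2-fold higher in HY213 (0.136%) and 26 were lower (0.114%). In replicate 2, 72 were higher (0.317%) and 16 were lower (0.0703%). At 1.5-fold in both replicates there were 26 higher (0.114%) and 29 lower (0.127%), of which 13 in each direction were listed for 1 gene.

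**Figure D1:**
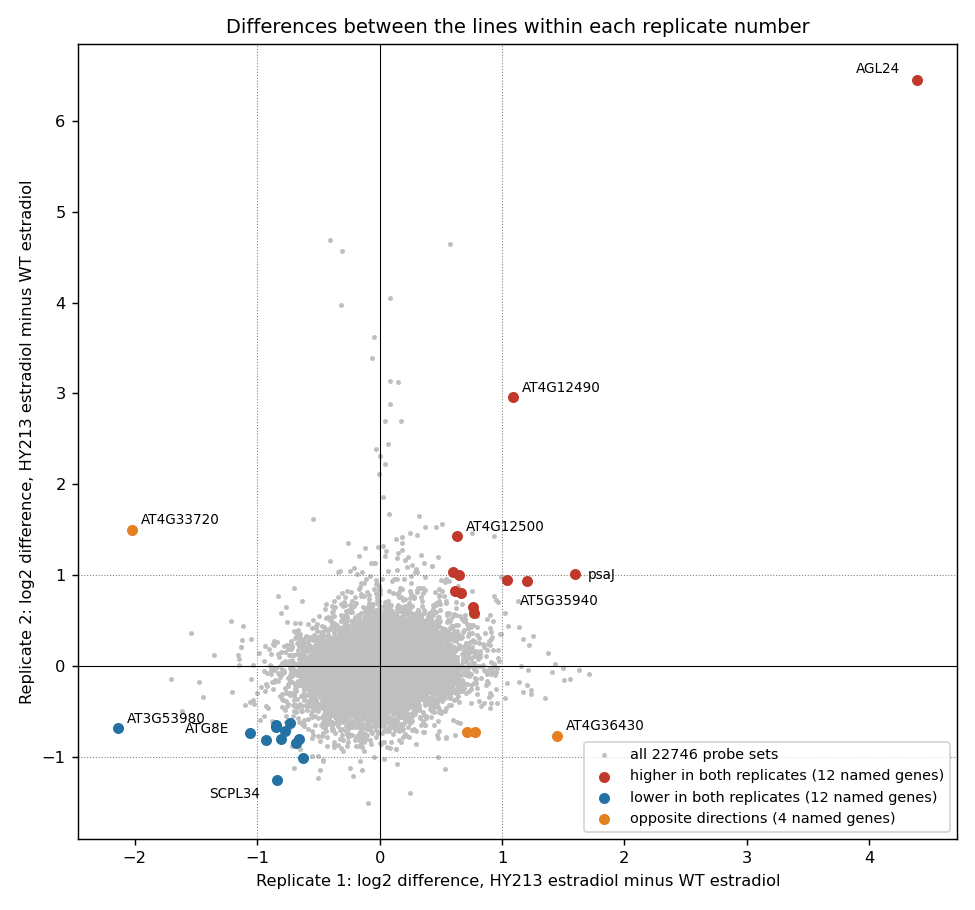
Each point is 1 probe set, with its log2 difference (HY213 minus wild type, both under estradiol) in replicate 1 on the x axis and in replicate 2 on the y axis; dotted lines mark 2-fold. AGL24 lies at 4.39 and 6.45, AT4G33720 lies in the upper left at -2.03 and 1.501, and a column of grey points rises in replicate 2 alone.

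AT4G12490 belongs to a family of small secreted proteins with a lipid-transfer fold and a proline-rich stretch. It read 68.97 and 224 in HY213 compared with 32.4 and 28.8 in wild type, which is 2.13-fold and 7.79-fold higher. Mock-treated HY213 read 34.99 and 63.3, so that the replicate 1 mock array was close to wild type and the replicate 2 mock array lay between the lines. The fitted log2 difference was 2.03 ± 0.37 (SE, limma adjusted p = 0.996). It passed when the replicate 1 HY213 array (adjusted p = 0.0354) or the replicate 1 wild-type array (0.0401) was left out, which leaves a lone array in that group. AT4G12500, a relative a short way along the same chromosome in the TAIR10.1 gene order, was named by the same rule. It read 31.0 and 59.3 in HY213 and 20.01 and 21.996 in wild type, with mock arrays at 14.9 and 43.2. Its HY213 arrays lay above both wild-type arrays, and whether probes of these related genes detect each other's transcripts was not tested. AT3G22620, a further lipid-transfer-type gene, read 9.94 and 42.4 in HY213 and 5.83 and 28.2 in wild type. Here the replicates were further apart than the lines. Its mock arrays read 7.60 and 6.27, so the replicate 2 mock array lay below both lines.

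Further genes of this set, grouped here by their known products rather than by a list, included a lectin, a peroxidase and a pectin lyase-like gene. AT5G35940, of the jacalin lectin family of sugar-binding proteins, read 42.9 and 27.2 in HY213 compared with 18.6 and 14.2 in wild type, and mock-treated HY213 lay between them at 27.8 and 20.5. The 4 estradiol arrays did not overlap between lines (log2 difference 1.07 ± 0.17, SE, limma adjusted p = 0.996). AT5G23830, which encodes an MD-2-related lipid-recognition protein, read 74.2 and 87.9 against 47.4 and 43.8, again without overlap. AT3G46280 read 183 and 340 against 120 and 166, with the replicate 2 mock array, at 311, near HY213 and the replicate 1 mock array, at 113, near wild type. The peroxidase gene AT5G66390 (PRX72), whose product takes part in lignin formation, read 19.7 and 50.6 in HY213 and 12.4 and 29.0 in wild type. Both of its mock arrays were lower still, at 10.3 and 11.6. AT1G04680, of the pectin lyase-like family, read 23.5 and 11.3 against 13.8 and 7.16, and the lines overlapped because replicate 1 was brighter in both. Its mock arrays read 17.8 and 16.3, so the replicate 2 mock array lay above both lines.

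AT3G09440 encodes a cytosolic heat-shock protein 70 of the constitutive type, a chaperone that helps proteins fold. It read 40.5 and 141 in HY213 and 19.7 and 73.2 in wild type, so it was 2.06-fold and 1.93-fold higher, with mock arrays between the lines at 25.4 and 95.2. AT3G18600, a DEAD-box RNA helicase gene, read 71.8 and 32.2 against 46.9 and 18.2. Its mock arrays read 46.3 and 39.7, so the replicate 2 mock array lay above both lines. In both genes the difference between replicates was as large as or larger than that between lines, and the within-replicate differences still pointed the same way. Of the 12 genes named as higher by rank, AGL24 included, 7 had both HY213 arrays above both wild-type arrays, an arrangement found in 12.7% of all probe sets. The ranking used the same differences, so nothing is read from this share.

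The plastid gene psaJ encodes a small subunit of photosystem I and was the third probe set past 2-fold in both replicates. It read 321 and 395 in HY213 compared with 106 and 195 in wild type, or 3.02-fold and 2.03-fold higher. Mock-treated HY213 read 311 and 277, also above both wild-type arrays, so the level in HY213 was high with and without estradiol. The fitted log2 difference was 1.31 ± 0.24 (SE, limma adjusted p = 0.996). It passed when the limma fit held only the 4 arrays compared (adjusted p = 0.0319). That fit had 1 residual degree of freedom and 13.1 prior ones, so its spread came mostly from other probe sets. With either mock array left out, the log2 difference of psaJ stayed at 1.31. The genes beside psaJ in the plastid gene order, looked up after its values were seen, had no difference as large in both replicates. The ribosomal protein gene rpl33 read 265 and 273 in HY213 and 281 and 269 in wild type. The cytochrome b6f subunit gene petG read 6.08 and 6.24 against 5.72 and 6.44, close to the Bacillus level, and petL read 45.3 and 7.09 against 29.0 and 6.02. On the other side of petL, the photosystem II gene psbE read 400 and 446 in HY213 compared with 248 and 400 in wild type, so its difference of 0.69 in replicate 1 shrank to 0.16 in replicate 2.

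**Figure D2:**
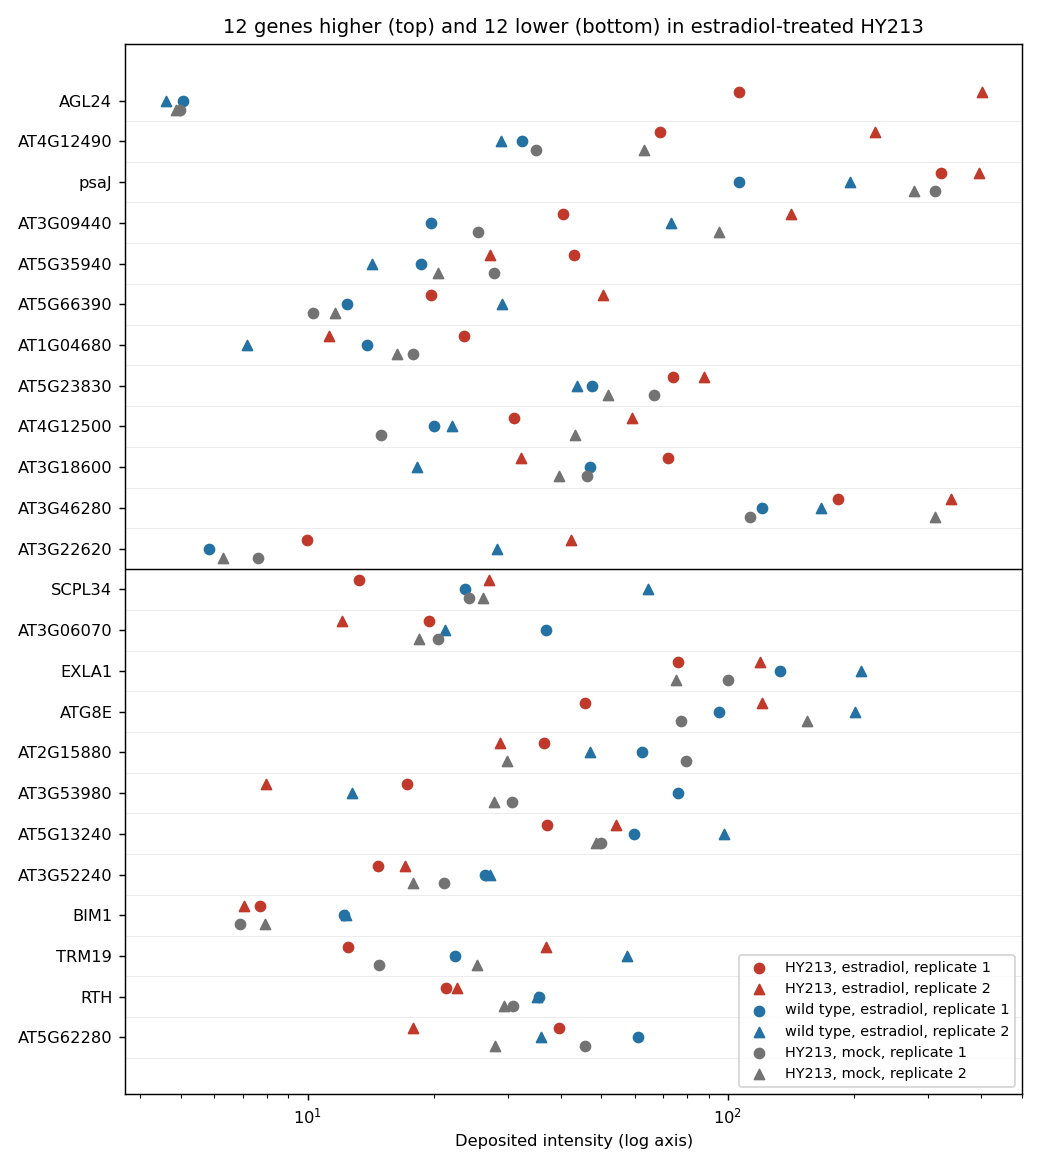
Deposited intensity (log axis) of the 12 genes that were highest and the 12 that were lowest in HY213 by the smaller of their within-replicate differences; red is HY213 with estradiol, blue is wild type with estradiol, grey is HY213 with mock, circles are replicate 1 and triangles replicate 2. AGL24 is the only gene where the lines are separated by more than 10-fold on both replicates, and psaJ shows the grey mock points beside the red ones.

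The 69 plastid-encoded genes that could be named differed between the lines mainly in replicate 1. Their median log2 difference was 0.16 in replicate 1 and -0.0026 in replicate 2, while all probe sets had medians of -0.0093 and 0.014. In replicate 1, 48 of 69 were higher in HY213 and 6 were at least 2-fold higher. In replicate 2, 33 were higher and psaJ alone was 2-fold higher. Over all 22746 probe sets, 10836 were higher in HY213 in replicate 1 and 12307 in replicate 2. Of these, 31 and 72 were at least 2-fold higher. Higher in both were 21 genes (30.4%, where all probe sets gave 27.4%) and lower in both were 9 (13.0%, against 25.4%). The ATP synthase gene atpF read 218 in HY213 and 66.4 in wild type in replicate 1, then 37.0 and 39.2 in replicate 2. The photosystem I reaction-centre gene psaA read 526 and 171 in replicate 1, then 73.7 and 76.2. The acetyl-CoA carboxylase subunit gene accD read 92.7 and 31.6, then 14.4 and 15.8. All 3 genes were brighter in replicate 1 than in replicate 2 in HY213, and the gap between the lines was there only in replicate 1. Mock-treated HY213 in replicate 1 was also above wild type, at 123 for atpF, 328 for psaA and 70.2 for accD. Over the whole list the mock arrays stood above wild type by a median of 0.27 in replicate 1, where 54 of 69 genes were higher, and by -0.10 in replicate 2, where 15 were. Over all 22746 probe sets, mock was above wild type in 11480 in replicate 1 and in 11245 in replicate 2. The mock and estradiol contrasts use the same wild-type arrays. The part of the replicate 1 wild-type array in the plastid difference was not tested beyond replicate 2 alone, where the median is the -0.0026 given above.

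**Figure D3:**
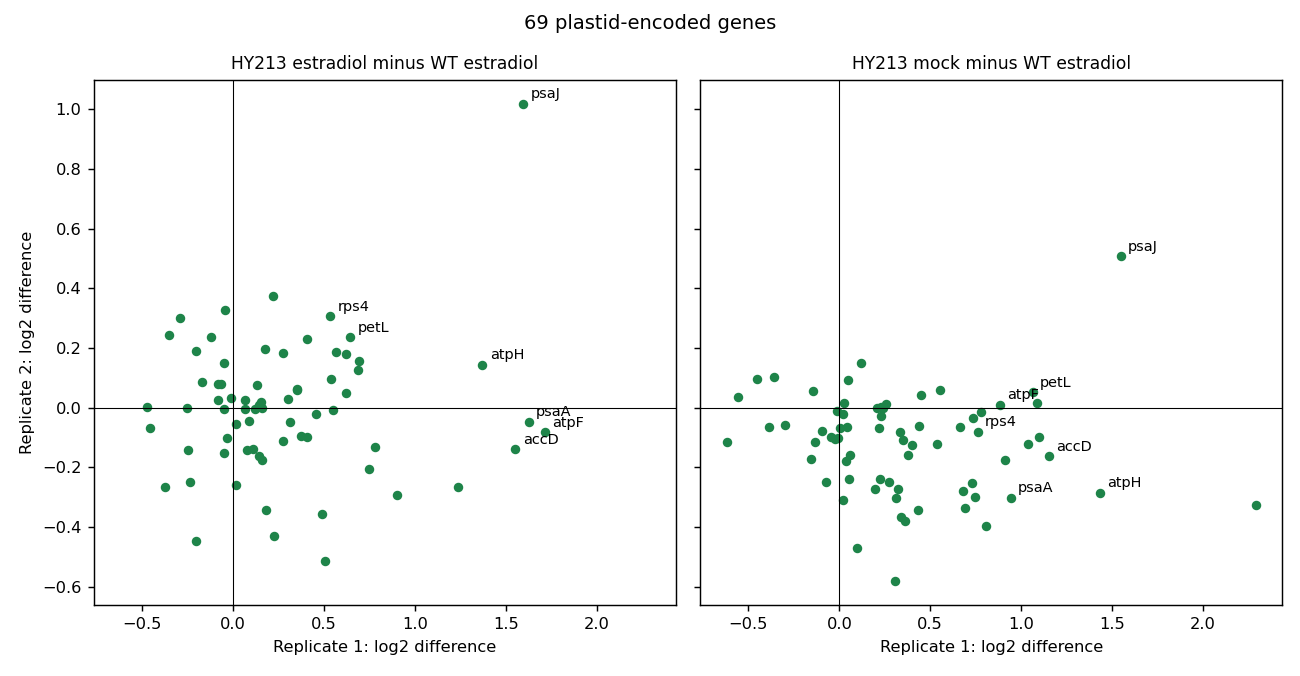
Log2 differences from estradiol-treated wild type in replicate 1 (x axis) and replicate 2 (y axis) for 69 plastid-encoded genes, for HY213 with estradiol (left) and HY213 with mock (right). Most points spread to the right of 0 along the replicate 1 axis and stay near 0 in replicate 2; psaJ, at 1.60 and 1.02 on the left, lies furthest up in both. The genes with names printed were picked after their values were seen.

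A nuclear photosynthesis gene was also low on the replicate 1 wild-type array. RCA, which encodes the activase that keeps the carbon-fixing enzyme Rubisco working, read 461 in HY213 and 195 in wild type in replicate 1, and 838 and 1036 in replicate 2. Its mock arrays read 644 and 906. The other marker, LHCB4.1, read 908 and 1123 in HY213 and 1044 and 1286 in wild type, replicates 1 and 2. Of 7 nuclear photosystem genes, 5 were slightly lower in HY213 in both replicates, the other 2 changed direction, and none was higher in both. PSAE-1, of photosystem I, read 785 and 1131 against 797 and 1383. PSAN, also of photosystem I, read 256.1 and 390 against 265 and 464.

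Among genes lower in HY213 in both replicates, the highest rank went to SCPL34, a serine carboxypeptidase-like gene. It read 13.3 and 27.1 in HY213 compared with 23.6 and 64.6 in wild type, which is 1.78-fold and 2.39-fold lower, and the mock arrays read 24.2 and 26.1. EXLA1, an expansin-like cell-wall gene, read 75.9 and 119 against 133 and 207, so that both HY213 arrays were below both wild-type arrays. Its mock arrays, at 100 and 75.2, were also below wild type. AT2G15880, a leucine-rich repeat extensin-type gene, read 36.4 and 28.6 against 62.4 and 46.9. Its mock arrays read 79.3 and 29.8, so the replicate 1 mock array lay above both lines. AT3G53980, of the lipid-transfer type, read 17.3 and 7.94 against 75.9 and 12.8. Its replicate 1 difference of -2.13 comes with a wild-type array that read above the other 5. Its mock arrays read 30.6 and 27.8, so the replicate 2 mock array lay above both lines.

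Regulatory and housekeeping genes were also in the lower set. ATG8E, whose product is built into the membranes of forming autophagosomes, read 45.6 and 120 in HY213 and 95.2 and 201 in wild type, with mock arrays between them at 77.5 and 154 (log2 difference -0.90 ± 0.19, SE, limma adjusted p = 0.996). BIM1, a bHLH transcription factor of brassinosteroid signalling, read 7.72 and 7.06 against 12.2 and 12.3. Its 2 arrays within each line were close together, so its difference of -0.73 ± 0.14 (SE) had the smallest unadjusted p in the lower set (0.000603, limma adjusted p = 0.996). Mock-treated HY213 matched estradiol-treated HY213 for BIM1, at 6.89 and 7.92. RTH, a homologue of the ethylene-response regulator RTE1, read 21.3 and 22.7 against 35.4 and 35.0, with mock arrays at 30.7 and 29.3 between the lines. TRM19, which carries a motif found in proteins recruited by TON1, read 12.5 and 36.8 against 22.4 and 57.7. The remaining 4 genes of the set, AT3G06070, AT5G13240, AT3G52240 and AT5G62280, were 1.54-fold to 2.01-fold lower. Of the 12 lower genes, 7 had both HY213 arrays below both wild-type arrays, which 10.5% of all probe sets did, and the ranking again used the same differences.

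In some genes the lines differed in opposite directions in the 2 replicates. AT4G33720 encodes a secreted protein of the PR-1 type. It read 90.5 in HY213 and 369 in wild type in replicate 1, and 144 and 51.0 in replicate 2. Its mock arrays read 375 and 609, above estradiol-treated HY213 in both replicates. AT4G36430, a secreted peroxidase gene, read 24.4 and 8.96 in replicate 1 and 44.9 and 76.3 in replicate 2, with mock arrays at 14.4 and 12.4. EXLB1, an expansin-like gene, read 28.7 and 16.7, then 12.8 and 21.2. AT1G19880 read 15.0 and 9.16, then 13.0 and 21.5. Averaging the replicates gives these genes a fitted difference near 0 with a wide error, as for AT4G33720 (-0.26 ± 0.73, SE). Across all probe sets 46.6% had opposite signs in the replicates, 27.4% were higher in both and 25.4% were lower in both.

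Other genes differed in 1 replicate and hardly at all in the other. In replicate 2, AT1G09310 read 334 in HY213 and 105 in wild type, while replicate 1 gave 490 and 463. Its mock arrays read 476 and 452, so the replicate 2 wild-type array was the one that stood low. PDF1.4, a member of the defensin-like family, read 135 and 56.0 in replicate 2 and 84.7 and 81.6 in replicate 1, and again the replicate 2 wild-type array was the lowest of the 6. AT1G50040 showed the reverse, at 21.6 and 61.1 in replicate 2 against 13.8 and 14.7 in replicate 1. In replicate 1, the peroxidase gene AT1G49570 read 22.7 in HY213 and 73.7 in wild type, and replicate 2 gave 36.7 and 40.6. Its mock arrays read 35.9 and 164, so the replicate 2 mock array lay above both lines. AT2G02050, for a subunit of mitochondrial complex I, read 28.0 and 10.4 in replicate 1 and 54.6 and 53.6 in replicate 2.

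How closely the replicates followed each other depended on brightness. The correlation of the replicate 1 and replicate 2 differences across all 22746 probe sets was r = 0.160, and the SD of the differences was 0.234 in each replicate. In the 5920 probe sets at background it was r = 0.000336. Among those above background it went from r = 0.101 for a mean intensity under 16 (5697 probe sets) through r = 0.167 (3973, from 16 to 64) and r = 0.229 (2102, from 64 to 256) to r = 0.289 at 256 and over (777). No array enters both replicates' differences, but all probe sets of a replicate share their 2 arrays, and probe sets are not independent. These values are a description of the 4 arrays.

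The gene lists drawn up for flowering and for seedling physiology held few nameable members, and 0 members of any list passed the adjusted p. The lists contain 305 probe sets in 21 of 25 lists, and 17 lists have the 5 or more needed for a median. The background for their counts is given by all probe sets, with a median log2 difference of 0.0030. The 41 probe sets of other MADS-box genes had a median of 0.0069. Of these, 9 were higher in HY213 in both replicates, 12 were lower in both, and 6 were above background on all 4 arrays. AGL16, a MADS-box gene, read 8.01 and 11.2 against 13.2 and 11.9. AGL92 read 5.51 and 5.73 against 6.81 and 6.51, close to background, and its replicate 1 HY213 value was below it. The flowering-time list had 8 genes, of which 0 were higher in both replicates and 1 was lower in both. That gene was GI, which links the circadian clock to day-length sensing, with differences of -0.09 and -0.14. All 4 gibberellin genes, the 3 receptor genes GID1A, GID1B and GID1C and the F-box gene SLY1, were higher in HY213 in replicate 1, and only SLY1 stayed higher in replicate 2, at 55.4 against 51.3.

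**Figure D4:**
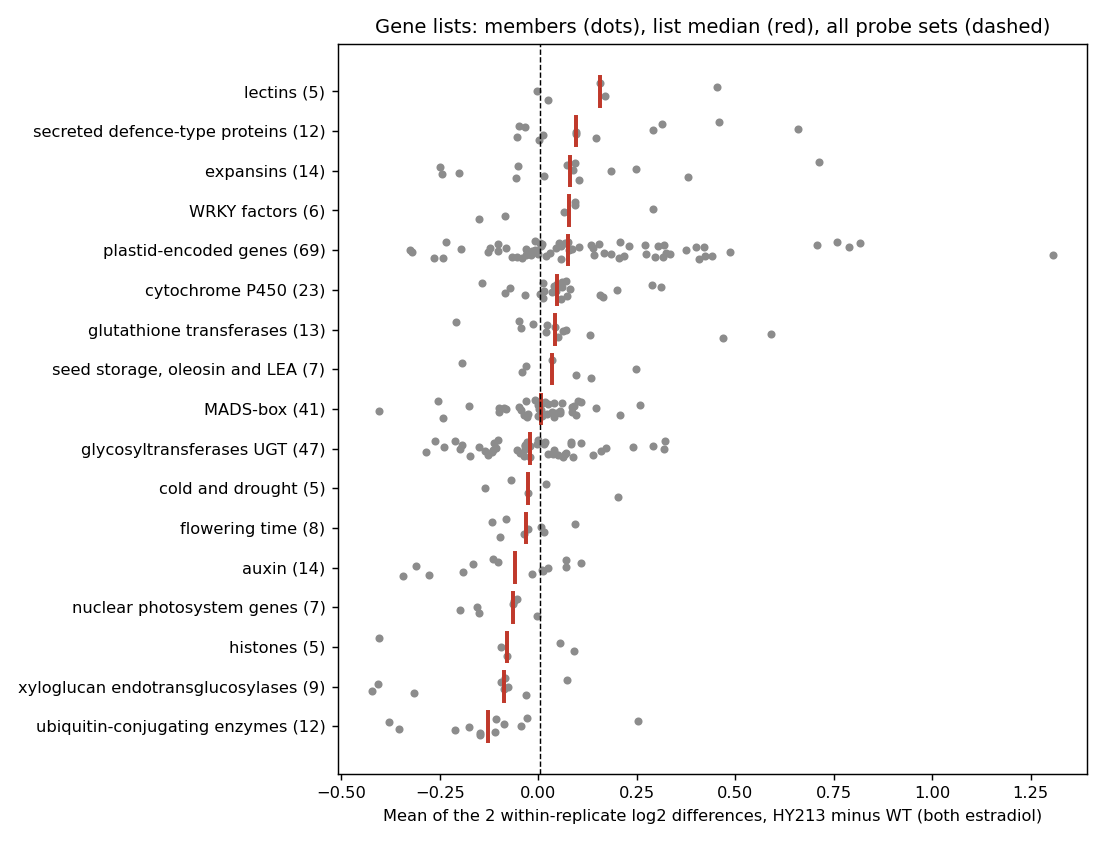
Mean of the 2 within-replicate log2 differences (x axis) for the members of the 17 gene lists with at least 5 probe sets (number in brackets); dots are members, red bars are list medians and the dashed line is the median of all probe sets. List medians run from -0.13 for ubiquitin-conjugating enzymes to 0.16 for lectins, and psaJ is the dot furthest to the right.

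No member of the hormone and stress lists passed the test. Of 14 auxin genes, 7 were lower in HY213 in both replicates and 3 were higher. The auxin-conjugating enzyme genes GH3.3 and GH3.17 were both in the lower part, GH3.3 at 24.3 and 225 against 35.4 and 249 and GH3.17 at 18.6 and 12.2 against 24.3 and 14.4. IAA18, a repressor of auxin-responsive transcription, read 66.5 and 80.8 against 89.4 and 88.4. Of 5 cold and drought genes, the dehydrin gene LTI30 alone kept its direction, at 107 and 242 against 95.5 and 205. The secreted defence-type list had 12 members, 4 higher and 3 lower in both replicates (its search pattern was corrected after its members were seen). AT4G12490 is not in it, because the reference names it by locus only. Of 5 lectin genes 3 were higher in both, among them JAL22 at 179 and 82.7 against 124 and 63.4.

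The enzyme and cell-wall families likewise had 0 members past the threshold. None of the 9 xyloglucan endotransglucosylase genes, whose products cut and rejoin wall polysaccharides, was higher in both replicates and 7 were lower, led by XTH18 at 64.7 and 229 against 99.2 and 268. The 12 ubiquitin-conjugating enzyme genes had 6 lower and 0 higher in both, with a median of -0.13. Of these, UBC16 read 56.2 and 77.9 against 70.5 and 105. UBC19, known for a role in the cell cycle, read 131 and 127 against 150 and 181. The expansin list, of proteins that loosen cell walls, had 14 genes, 6 higher and 3 lower in both. EXPA4 had the largest difference in it, at 17.8 and 18.6 against 9.35 and 13.2, where the HY213 arrays lay above both wild-type arrays. Of 13 glutathione transferase genes, 6 were higher and 2 lower. GSTL3 read 138 and 181 against 111 and 118, and GSTU20 read 7.56 and 7.93 against 6.02 and 4.38 while its mock arrays were higher than both, at 13.9 and 14.0. Among 23 cytochrome P450 genes, 9 were higher and 2 lower, and 7 were above background on all 4 arrays. The 47 UGT glycosyltransferase genes divided into 12 higher and 13 lower, and the 7 seed storage, oleosin and LEA genes into 3 higher and 0 lower.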

How the data were processed

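The deposited table holds the authors' intensity values, all above 0 and linear, for 22810 probe sets on 6 Affymetrix arrays of biotin-labelled total RNA, per the labels' protocols. Per the submitters' processing notes, MAS5 and RMA were used; their roles are not given. After removal of 64 control probe sets 22746 remained. Of these, 13513 are listed for 1 gene in the platform annotation and 13436 of these were matched to RefSeq (TAIR10.1); the rest stay unnamed. Background is the highest of 15 Bacillus control probe sets on each array.

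The deposited intensities were taken to log2 with no pseudocount. The model was limma's (version 3.58.1, R 4.3.3), with lmFit and eBayes with a mean-variance trend, on all 6 arrays in 3 groups. Replicate number was a block (2 residual degrees of freedom), and p-values had Benjamini-Hochberg adjustment at 0.05. The number of arrays limits the precision. Arrays of the same number deviated together from their group means (r of 0.779 for the lines compared, 0.627 and 0.606 with mock), and principal component 1 (65.1% of the variance) separated the numbers. The design text does not state that a number marks a shared round, so the pairing comes from these values and from the rule of the comparison. The fit was also run on simulated data with planted fold differences and noise drawn from the fit's own spread. That run checks only the mean size of the estimates and does not bear on how firm the AGL24 call is.

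The members, gene lists and tests were chosen with earlier results of these data known. That includes the setting of the fit: 21 fits of this contrast were run, and 6 of the other 20 lose the call of AGL24. Genes were named by rule: AGL24, probe sets past the threshold or 2-fold apart in both replicates, the 12 highest and 12 lowest listed for 1 gene with the brighter line above background (ranked by the smaller within-replicate difference), 4 with opposite directions, up to 4 per direction with the other replicate within 0.2 of 0, and up to 4 per list. Alternatives covered the block, pseudocounts of 1, 16 and 64, quantile and median normalization, a floor at background, the dimmest 25%, variance priors, the 4 arrays alone, leaving out single arrays, a threshold of 0.1 and 1.5-fold.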

Additional observations from a re-analysis of the deposited data

How the results depend on the processing

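The count of 1 called probe set was 0 without the replicate block, 0 with pseudocounts of 16 and 64, 0 with no variance trend, 0 with a robust prior, 0 with a pseudocount of 16 and no replicate block (a setting added after the data were seen), and 2 on the 4 arrays alone. Raising dim values to the Bacillus level gave 94 calls. That fit had an infinite prior degree of freedom, and with the probe sets at the floor on all 6 arrays left out (added later) it had 13.0 and gave 1 call. Leaving out 1 array gave 1 to 25 calls: 25 without HY213 estradiol replicate 1, 3 without wild-type replicate 1 and 2 without either mock array. In the fit with dim values raised, 15 of the 23 genes ranked highest or lowest, AGL24 aside, passed. Over all 22746 probe sets that fit gave the 94 calls above. The genes were ranked on the differences that it tests, so nothing is read from the 15. Of 102 list medians under other scales, 85 moved by less than the spread between replicates and 17 by more. The log2 difference of AGL24 was 5.42 where its call was lost without the replicate block, without a trend or with a robust prior, 3.44 with a pseudocount of 16 with or without the block, and 2.03 with 64. With 1 array left out it ran from 4.42 to 6.42 and passed each time. The 2-fold count of 3 was 1 with pseudocounts of 16 and 64, and at 1.5-fold 26 were higher and 29 lower. No leave-one-out count exists for it, since it needs both replicates. These 23 genes, the only others run under the alternatives by name, kept their direction with 1 exception. AT3G22620 ran from -0.0019 (without wild-type replicate 1) to 1.36. All 23 were chosen for the same sign in both replicates. Changes of pseudocount, block or variance setting could therefore not reverse them, and nothing is read from the kept directions. Dim values limit the lists: 35 of 41 MADS-box probe sets were at background on at least 1 array.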

Other observations

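In the fit that drops HY213 estradiol replicate 1, 25 probe sets were called. The group then holds 1 array, its spread is taken from the remaining groups, and a probe set high on it alone can be called. In 23 of the 25 the replicate 1 log2 difference was within 1 of 0, while replicate 2 gave 0.82 to 4.69. Among the 9 that were listed for 1 gene, PAP85, a vicilin-type seed storage protein gene, read 42.8 on that array, 9.90 on the replicate 2 wild-type array and 5.01 on the replicate 1 HY213 array. AT2G28490, of the cupin type found in seed storage proteins, read 11.0 on that array and 4.43 to 4.59 on the other 3 estradiol arrays. BGLU19, a beta-glucosidase gene, read 9.74 there and 4.76 to 5.53 on the other 3. PAP85, AT2G28490 and BGLU19 were chosen with their values in view. The seed marker OLEO3 read 6.19 on that array and 6.38 on the replicate 1 HY213 array. The 7 seed storage, oleosin and LEA genes summed to 306 on it and to 317, 307 and 310 on the other 3 estradiol arrays. Their median intensity was 6.46 on it and 6.30, 5.85 and 5.60 on the other 3, in the same order. The sums therefore rest on the brightest members and cannot show a rise in the dim ones. Of the 7 genes, 6 were higher in HY213 in replicate 2 and 4 in replicate 1.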
